A study of Homo sapiens with 4 samples.

Results

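The TGF-beta, BMP and YAP target genes measured here are 9 genes, ID1, ID2, ID3, SMAD6, SMAD7, THBS1, CCN1, CCN2 and ANKRD1, taken by gene symbol from the platform annotation, out of 17687 named genes. Each had 1 probe set, and all 9 passed the floor on low signals used below. Expression was profiled on 4 microarrays of the established human prostate cancer cell line DU145, an androgen-independent line, after culture for 48 h with C-30 at 2 µM, C-30 at 0.5 µM, No.10-3 at 5 µM or vehicle. C-30 and No.10-3 are described by the study as inhibitors of PSF, the nuclear RNA-binding protein encoded by SFPQ, and all cells were grown in RPMI medium with 10% serum. Each condition has 1 array, so no difference below has an error or a test, and precision is limited by there being 4 arrays. All statements describe these 4 arrays of 1 cell line.

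TGF-beta and BMP ligands bind pairs of serine/threonine kinase receptors, which phosphorylate SMAD transcription factors. BMP receptors act on SMAD1, SMAD5 and SMAD9, whose best known direct targets are the ID genes and the inhibitory SMADs, whereas TGF-beta receptors act mainly on SMAD2 and SMAD3. YAP and its relative TAZ are coactivators held in check by the Hippo kinases. In the nucleus they bind TEAD factors and switch on CCN1, CCN2 and ANKRD1, genes that are widely used as readouts of YAP activity and that respond to adhesion and cell tension. CCN2 and THBS1 also respond to TGF-beta, and most of these genes are induced within hours by serum.

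Values are log2 signals. A level is called above background when it exceeded the background level of its array, the value below which 95% of the 612 negative control probe sets fell. This level was 7.15 with C-30 at 2 µM, 7.11 with C-30 at 0.5 µM, 7.06 with No.10-3 and 7.32 with vehicle. Differences are log2 differences between 2 arrays, and a gene is counted as 2-fold lower or higher at a difference of 1 or more. A gene entered a comparison when the higher of its 2 signals reached 5.56, the median signal over the named probe sets. Between 30.5% and 33.9% of named genes were above background on an array, and Pearson correlations between arrays across genes lay between 0.979 and 0.987. The 63 probe sets for ERCC spike sequences, whose sequences are foreign to the cells, differed from vehicle with a robust SD of 0.27 for C-30 at 2 µM, 0.17 for C-30 at 0.5 µM and 0.13 for No.10-3. In the same order, the median ERCC differences were -0.06, -0.04 and -0.16. Differences of all genes past the floor had robust SDs of 0.60, 0.51 and 0.47, and those of the negative control probe sets 0.91, 0.83 and 0.83. The ERCC spread therefore does not describe genes near background. Epithelial markers KRT8, KRT18, KRT19 and EPCAM were above background on each array and CDH1 on none. KRT8, KRT18, KRT19 and EPCAM differed from vehicle by -0.66, -0.67, -0.45 and 0.51 with C-30 at 2 µM, by -0.15, 0.00, 0.30 and 0.48 with C-30 at 0.5 µM, and by 0.63, 0.27, 0.93 and 0.69 with No.10-3, and the part of this in the results was not tested. Among markers of other cells, 0 of 3 endothelial genes and 0 of 2 prostate secretory genes were above background on any array. CD68 was the only one of 4 leukocyte genes that was, 2.11-fold higher with No.10-3 while CD3E, CD79A and PTPRC were under background on each array, and COL1A2, at 7.13 with C-30 at 0.5 µM, the only one of 5 stromal genes.

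With C-30 at 2 µM, 4 of the 9 genes were at least 2-fold lower than with vehicle, namely ID1, ID3, CCN1 and ANKRD1, and 0 were 2-fold higher. Of all 9319 genes past the floor, 6.15% were at least 2-fold lower and 4.67% at least 2-fold higher in that comparison. The other 5 genes differed by between -0.96 and 0.01, so that 8 of the 9 lay below 0, as did 53.6% of all genes. The median difference of the 9 was -0.96, against -0.06 over all genes past the floor. That median is the value of SMAD6, whose C-30 signal was under background, and it was -0.49 when the 3 genes under background with C-30 at 2 µM were set to that array's background level. With C-30 at 0.5 µM, 0 of the 9 passed 2-fold in either direction, beside 2.77% of 9267 genes lower and 3.4% higher. The median there was -0.54, or -0.29 with signals under background set to the background level, and over all genes it was -0.04. With No.10-3, 0 of the 9 passed 2-fold, beside 1.32% of 9219 genes lower and 4.36% higher, and the median was -0.04 against 0.05 over all genes. These 3 comparisons use the same vehicle array. In RNA of whole cultures, a large difference in some cells and a small one in all cells cannot be told apart.

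**Figure D1:**
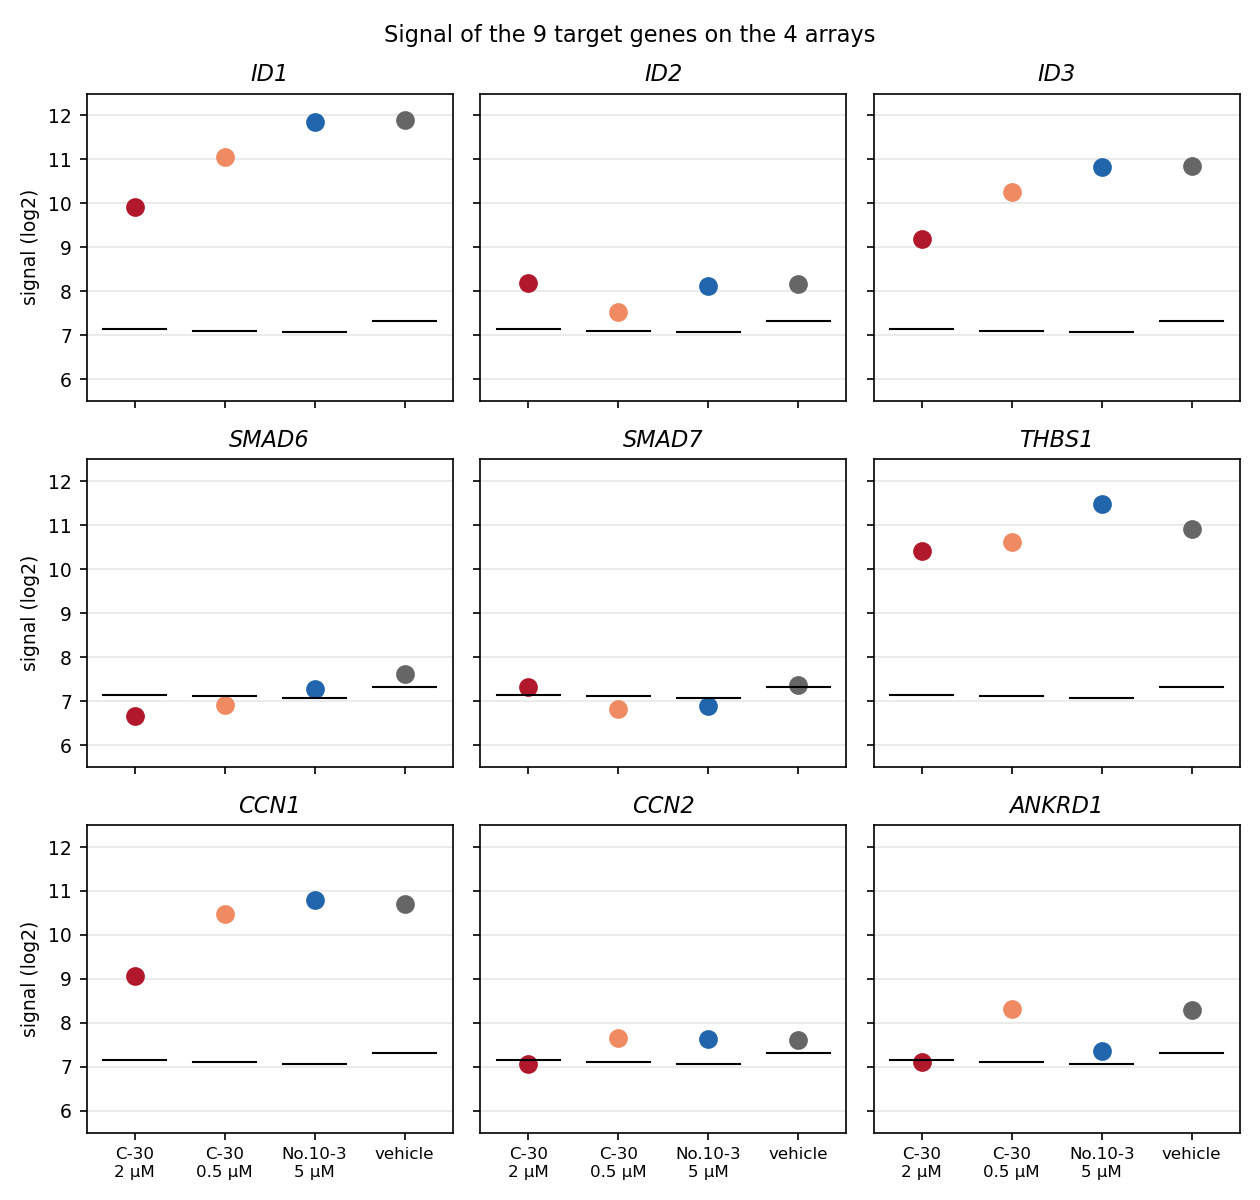
Log2 signal (vertical axis) of each of the 9 genes on the arrays of C-30 at 2 µM, C-30 at 0.5 µM, No.10-3 at 5 µM and vehicle, 1 point per array, with a black line at the background level of that array. ID1, ID3 and CCN1 stand well above the line on every array and are lowest with C-30 at 2 µM, whereas SMAD6, SMAD7 and CCN2 lie close to it throughout.

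The ID genes encode helix-loop-helix proteins without a DNA-binding region. They pair with basic helix-loop-helix factors and keep them from DNA, which delays differentiation and favours division. ID1 (probe set TC2000007083.hg.1, chromosome 20, 31605289 to 31606510 in GRCh38.p14, as all positions here) gave signals of 9.91 with C-30 at 2 µM, 11.05 with C-30 at 0.5 µM and 11.85 with No.10-3, against 11.89 with vehicle. The order followed the C-30 dose, and the No.10-3 and vehicle arrays were nearly level. The difference with C-30 at 2 µM was -1.98, or 3.93-fold lower, which put ID1 at rank 43 from the lowest of 9319 genes. The differences with C-30 at 0.5 µM and with No.10-3 were -0.83 and -0.04.

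ID3 (TC0100013293.hg.1, chromosome 1, 23557926 to 23559501) had signals of 9.19 with C-30 at 2 µM, 10.26 with C-30 at 0.5 µM and 10.82 with No.10-3, against 10.86 with vehicle. It thus stood in the same order as ID1. Its difference was -1.67 with C-30 at 2 µM, 3.18-fold lower and rank 85 from the lowest, and -0.60 and -0.04 with C-30 at 0.5 µM and No.10-3.

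ID2 (TC0200006627.hg.1, chromosome 2, 8682056 to 8684461) did not follow the other 2 genes at the higher dose. Its signal was 8.19 with C-30 at 2 µM, 7.54 with C-30 at 0.5 µM and 8.11 with No.10-3, against 8.17 with vehicle, so that the array of C-30 at 0.5 µM was the low one. The difference was 0.01 with C-30 at 2 µM, -0.63 with C-30 at 0.5 µM and -0.06 with No.10-3. All 3 ID genes were above background on each array. ID4, the fourth gene of the family, was under background on all 4 arrays.

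Between the C-30 doses themselves, ID1 was 2.21-fold and ID3 2.11-fold lower at 2 µM than at 0.5 µM, with differences of -1.14 and -1.07, while ID2 differed by 0.65 in the other direction. In that comparison 4 of the 9 genes were at least 2-fold lower, again ID1, ID3, CCN1 and ANKRD1, and 0 were higher, beside 2.18% of 9282 genes lower and 1.39% higher. The array of C-30 at 2 µM enters this comparison and that with vehicle, so the 2 counts are not independent.

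The inhibitory SMADs close a feedback loop. SMAD6 chiefly restrains BMP receptors and SMAD7 acts on TGF-beta receptors as well. SMAD6 (TC1500007619.hg.1, chromosome 15, 66702236 to 66782849) had signals of 6.65 with C-30 at 2 µM, 6.92 with C-30 at 0.5 µM and 7.28 with No.10-3, against 7.61 with vehicle. It was not above background on either C-30 array and was just above it on the other 2. With the background level in place of its signal, SMAD6 was 1.38-fold lower with C-30 at 2 µM and 1.41-fold lower with C-30 at 0.5 µM. The measured differences were -0.96 and -0.69, and that with No.10-3 was -0.32. SMAD7 (TC1800008650.hg.1, chromosome 18, 48919853 to 48950965) had signals of 7.32 with C-30 at 2 µM, 6.83 with C-30 at 0.5 µM and 6.88 with No.10-3, against 7.37 with vehicle. Its signal was under background with C-30 at 0.5 µM and with No.10-3 and barely over it on the other arrays. The difference with C-30 at 2 µM was -0.05. With C-30 at 0.5 µM and with No.10-3 the measured differences of SMAD7 were -0.54 and -0.49. With the background level in place of the signal it was 1.20-fold and 1.24-fold lower. The background level of vehicle, 7.32, was above those of these 2 arrays, 7.11 and 7.06, so a decrease of SMAD7 is not established. The negative control probe sets differed from vehicle with robust SDs of 0.91, 0.83 and 0.83 for C-30 at 2 µM, C-30 at 0.5 µM and No.10-3. The differences of both SMADs at the lower C-30 dose and with No.10-3 are smaller than those values, so a decrease of SMAD6 is not established there either. With C-30 at 2 µM the SMAD6 difference, -0.96, is close to 0.91.

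The promoters of these BMP targets are shown because ID1 and ID3 moved together and SMAD6 carries an uncommon SMAD sequence. Windows of 250 bases before the transcription start were read from RefSeq sequence of GRCh38.p14, in which 8 of the 9 genes, all but CCN1, matched, with 3 start sites for SMAD7. On both strands 5 motifs were searched. These were the TEAD site GGAATG, the SMAD box CAGAC, the GC-rich SMAD site GGCGCC and the palindromic SMAD site GTCTAGAC. The last was the AP-1-like pattern TGANTCA, in which N is any base. In the sequences below, printed 5′ to 3′ on the gene's strand, matches are in capitals. The window of ID1 is chr20:31605039-31605288 on the plus strand, that of ID3 chr1:23559502-23559751 on the minus strand and that of SMAD6 chr15:66701986-66702235 on the plus strand.
ID1: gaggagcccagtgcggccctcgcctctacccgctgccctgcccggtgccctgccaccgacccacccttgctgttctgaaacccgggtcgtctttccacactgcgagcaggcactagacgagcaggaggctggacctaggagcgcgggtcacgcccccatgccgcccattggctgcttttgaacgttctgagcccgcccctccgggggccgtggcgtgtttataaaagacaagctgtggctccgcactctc
ID3: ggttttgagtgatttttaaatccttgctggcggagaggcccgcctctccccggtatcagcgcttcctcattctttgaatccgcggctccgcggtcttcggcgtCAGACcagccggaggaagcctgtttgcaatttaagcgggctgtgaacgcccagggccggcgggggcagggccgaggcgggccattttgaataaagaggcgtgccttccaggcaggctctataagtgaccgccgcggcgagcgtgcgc
SMAD6: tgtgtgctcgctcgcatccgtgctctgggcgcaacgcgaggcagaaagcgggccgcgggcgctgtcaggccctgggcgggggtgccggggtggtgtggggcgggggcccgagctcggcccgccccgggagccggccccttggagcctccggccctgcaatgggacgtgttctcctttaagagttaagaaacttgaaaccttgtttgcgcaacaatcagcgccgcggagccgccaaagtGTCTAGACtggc
ID1 held none of the 5 motifs in this window, and neither did ID2. ID3 held 1 SMAD box, whose first base lies at -147 from the start. A SMAD box was present in 5 of the 8 matched genes, ID3, THBS1, CCN2, ANKRD1 and SMAD7 at 2 of its 3 starts, and in 38.0% of the 35116 windows of the RefSeq table. The palindromic site was found in SMAD6, at -12, and in 0.182% of all windows. None of the 8 genes held the GC-rich site, which was present in 16.4% of all windows. A match is a description of letters and not of binding, and known elements of these genes can lie farther upstream.

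The YAP and TGF-beta targets encode proteins of the matrix and of the sarcomere. CCN1 and CCN2 are secreted matricellular proteins that signal through integrins. CCN1 (TC0100008912.hg.1, chromosome 1, 85580761 to 85583950) had signals of 9.07 with C-30 at 2 µM, 10.47 with C-30 at 0.5 µM and 10.79 with No.10-3, against 10.71 with vehicle. The array of C-30 at 2 µM stood apart from the other 3. The difference was -1.63 with C-30 at 2 µM, 3.11-fold lower and rank 91 from the lowest of 9319 genes, against -0.24 with C-30 at 0.5 µM and 0.08 with No.10-3. At 2 µM it was 2.64-fold lower than at 0.5 µM, a difference of -1.40 and rank 48 from the lowest of 9282 genes.

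ANKRD1 (TC1000011400.hg.1, chromosome 10, 90912096 to 90921087), which encodes an ankyrin repeat protein of muscle that is also induced in stretched or YAP-active epithelial cells, gave another pattern. Its signal was 7.11 with C-30 at 2 µM, 8.31 with C-30 at 0.5 µM and 7.37 with No.10-3, against 8.30 with vehicle. The arrays of C-30 at 2 µM and of No.10-3 were low and the other 2 were level. With C-30 at 2 µM the signal was just under background, and ANKRD1 was at least 2.23-fold lower than with vehicle and at least 2.24-fold lower than with C-30 at 0.5 µM. The difference with No.10-3 was -0.93, 1.90-fold lower and rank 169 from the lowest of 9219 genes, which did not reach 2-fold. The No.10-3 signal, 7.37, was close above the background level, 7.06. The difference is little larger than the robust SD of the negative control probe sets, 0.83. ANKRD1 passed 2-fold with No.10-3 under 3 other ways of scaling the arrays, at differences between -1.01 and -1.02. ANKRD1 was the only one of the 9 genes past 1.5-fold in either direction with No.10-3, beside 8.34% of all genes lower and 14.8% higher at that threshold.

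CCN2 (TC0600013186.hg.1, chromosome 6, 131948176 to 131951372) had signals of 7.07 with C-30 at 2 µM, 7.66 with C-30 at 0.5 µM and 7.63 with No.10-3, against 7.61 with vehicle. It was under background with C-30 at 2 µM and close above it elsewhere. With the background level in place of its signal with C-30 at 2 µM, CCN2 was 1.38-fold lower. The measured difference, -0.54, is smaller than the robust SD of the negative control probe sets, 0.91, so a decrease of CCN2 is not established. It differed by 0.05 with C-30 at 0.5 µM and 0.02 with No.10-3.

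THBS1 (TC1500006925.hg.1, chromosome 15, 39581079 to 39599466) encodes thrombospondin 1, a matrix protein that activates latent TGF-beta. Its signal was 10.42 with C-30 at 2 µM, 10.62 with C-30 at 0.5 µM and 11.49 with No.10-3, against 10.91 with vehicle. Of the 9 genes it had the highest difference with No.10-3, a value of 0.58 (1.49-fold), while the C-30 differences were -0.49 and -0.29 at 2 and 0.5 µM. None of these reached 2-fold. The doses of the 2 compounds differ, so the values are given side by side and not compared as compounds.

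The upstream windows of CCN2, ANKRD1 and THBS1 are shown because they hold the TEAD site, with matches to the 5 motifs again in capitals. They are chr6:131951373-131951622 on the minus strand for CCN2, chr10:90921088-90921337 on the minus strand for ANKRD1 and chr15:39580829-39581078 on the plus strand for THBS1.
CCN2: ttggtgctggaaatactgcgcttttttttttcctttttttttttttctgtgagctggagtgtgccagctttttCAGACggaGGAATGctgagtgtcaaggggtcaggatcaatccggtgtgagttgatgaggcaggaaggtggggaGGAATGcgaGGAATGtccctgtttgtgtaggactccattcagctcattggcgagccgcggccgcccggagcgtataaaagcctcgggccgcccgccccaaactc
ANKRD1: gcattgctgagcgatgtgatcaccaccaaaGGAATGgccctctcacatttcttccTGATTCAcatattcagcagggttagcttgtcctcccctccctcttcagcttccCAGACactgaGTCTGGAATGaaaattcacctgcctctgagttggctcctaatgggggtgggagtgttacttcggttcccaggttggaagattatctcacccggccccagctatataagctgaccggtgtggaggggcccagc
THBS1: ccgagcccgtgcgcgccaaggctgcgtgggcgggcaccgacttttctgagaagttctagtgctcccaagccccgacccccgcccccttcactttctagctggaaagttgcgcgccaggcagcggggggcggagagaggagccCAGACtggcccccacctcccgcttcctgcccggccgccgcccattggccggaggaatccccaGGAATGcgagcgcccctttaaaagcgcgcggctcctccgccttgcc
The TEAD site occurred 3 times in CCN2, with first bases at -169, -104 and -95, 2 times in ANKRD1, at -220 and -128, and 1 time in THBS1, at -46. Of all 35116 windows, 11.9% held at least 1 TEAD site, 0.94% at least 2 and 0.0826% at least 3. In ANKRD1 the site at -128 shares 1 base with a SMAD box at -132. A match to the AP-1-like pattern, reading TGATTCA, lies at -195, and 6.57% of windows held a match to this pattern. With C-30 at 2 µM, CCN2 and ANKRD1 were under background, and THBS1 differed by -0.49. Set to the background level, CCN2 and ANKRD1 were 1.38-fold and 2.23-fold lower than with vehicle, and the decrease of CCN2 is not established. With No.10-3, CCN2, ANKRD1 and THBS1 differed by 0.02, -0.93 and 0.58.

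**Figure D2:**
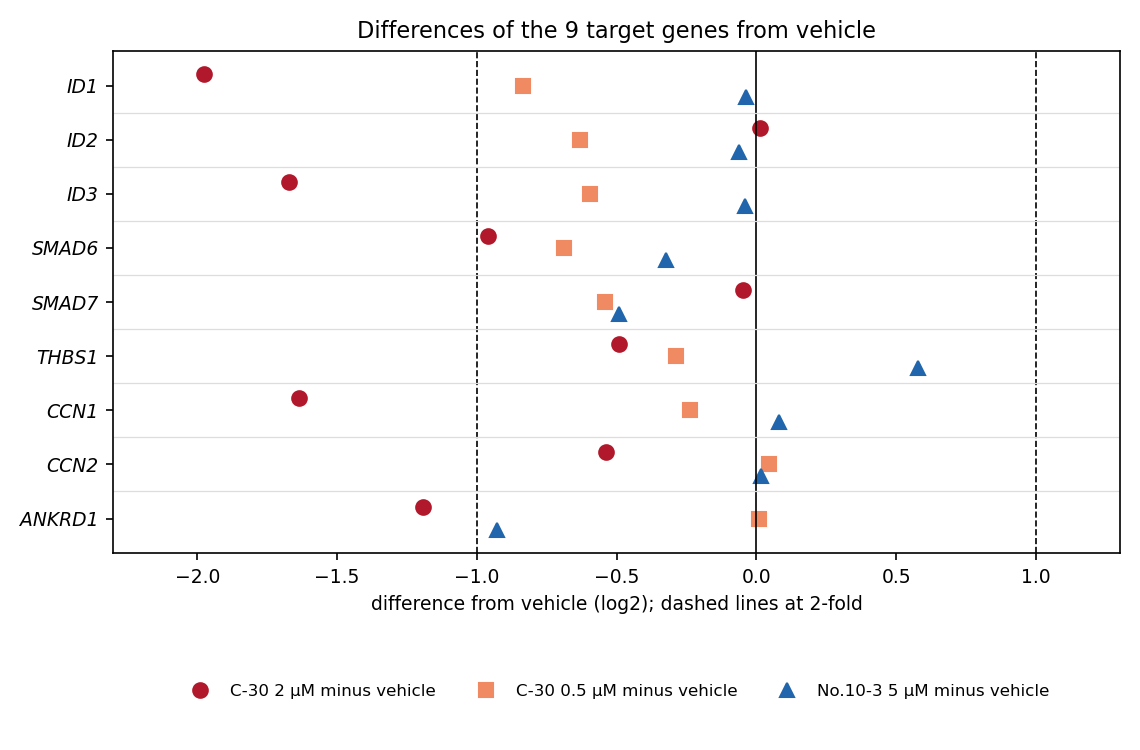
Log2 difference from vehicle (horizontal axis) of each gene for C-30 at 2 µM (circles), C-30 at 0.5 µM (squares) and No.10-3 at 5 µM (triangles), 1 array each, with dashed lines at 2-fold. With C-30 at 2 µM ID1, ID3, CCN1 and ANKRD1 lie beyond the lower line, and with C-30 at 0.5 µM or No.10-3 no gene does.

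Among all genes past the floor, the 9 genes were spread unevenly. With C-30 at 2 µM, ID1, ID3 and CCN1 held ranks 43, 85 and 91 from the lowest of 9319, while ID2 and SMAD7 held ranks 5081 and 4692, near the middle. With C-30 at 0.5 µM ID1 was at rank 497 of 9267, ID2 at rank 1040 and ID3 at rank 1198. CCN1 was at rank 3195 there, so at this dose the 3 ID genes lay lower among all genes than CCN1, CCN2 and ANKRD1. SMAD6 and SMAD7 were under background on that array, and their measured differences held ranks 870 and 1427. With No.10-3, ANKRD1 was at rank 169 of 9219, and THBS1 was at rank 1392 from the highest.

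**Figure D3:**
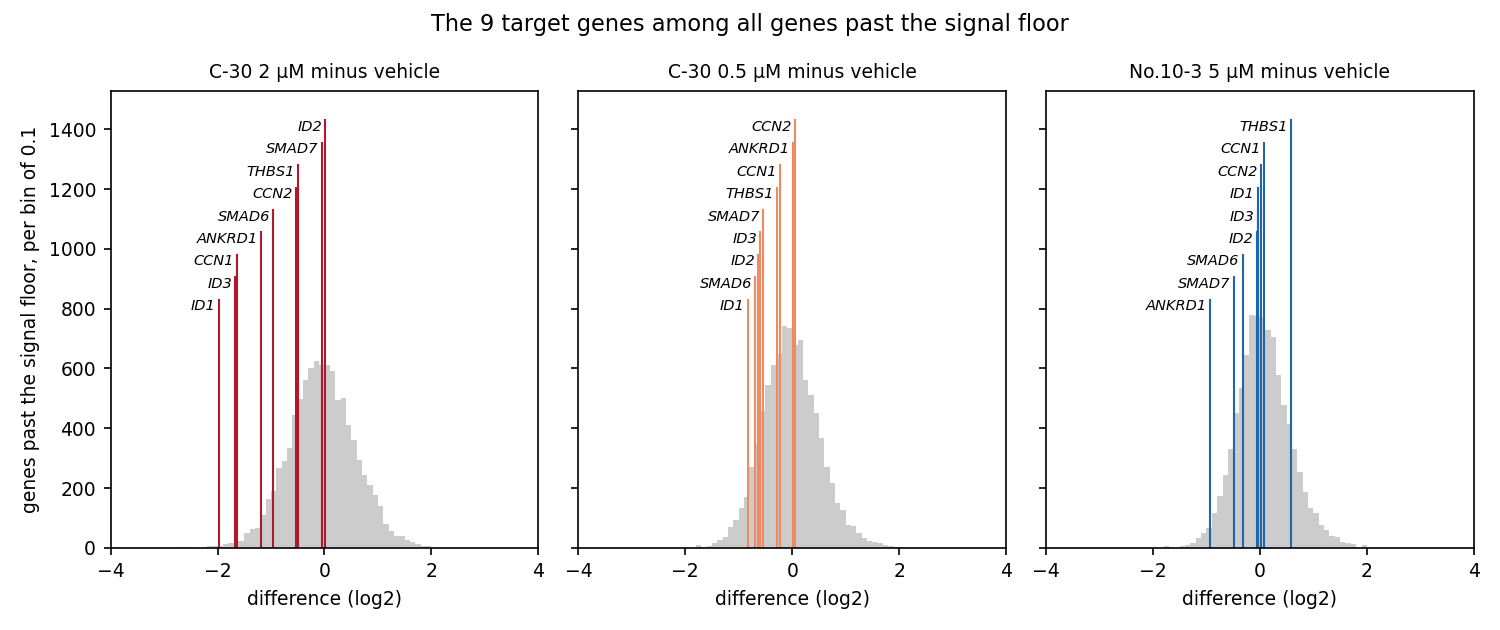
Histograms of the log2 difference from vehicle (horizontal axis) over all genes past the signal floor, in bins of 0.1, with a line at each of the 9 genes, for C-30 at 2 µM, C-30 at 0.5 µM and No.10-3 at 5 µM; the height of a line has no meaning, and differences beyond 4 are counted in the outermost bins. ID1, ID3 and CCN1 lie in the lower tail with C-30 at 2 µM and near the centre with No.10-3.

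The genes whose pattern was most like that of ID1, by Euclidean distance over the 3 differences from vehicle among 9629 other genes, were the histone genes H2BC17 (distance 0.17), H4C12 (0.24) and H2AC18 (0.26). H4C12 had signals of 7.82 with C-30 at 2 µM, 9.22 with C-30 at 0.5 µM and 9.88 with No.10-3, against 9.84 with vehicle. Histone cluster genes are near-identical copies, and their probe sets may read more than 1 of them. H2BC17 was under background with C-30 at 2 µM, where it was at least 2.24-fold lower, so its distance is inexact. ID3 was at rank 15 in likeness to ID1, at a distance of 0.39, and CCN1 at rank 79, at 0.70. For CCN1 the nearest genes were SLC27A2 (0.16), LYPLA2 (0.26) and SRM (0.29), a fatty acid transporter, a lysophospholipase and spermidine synthase. SRM had signals of 8.48, 9.65, 10.24 and 9.93 with C-30 at 2 µM, C-30 at 0.5 µM, No.10-3 and vehicle, while SLC27A2 was under background with C-30 at 2 µM and at least 1.23-fold lower there, so that its place as nearest rests on an inexact value. The distance rests on 4 arrays, and many genes can lie close by on so few.

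The ligands and receptors upstream of these targets were examined next. Of 9 genes of TGF-beta and activin ligands and latency proteins, 8 were measured and 3 passed the floor, and TGFB1 alone was above background. TGFB1, the main TGF-beta ligand gene, had signals of 9.07 with C-30 at 2 µM, 9.34 with C-30 at 0.5 µM and 10.32 with No.10-3, against 10.26 with vehicle. Both C-30 arrays were low, and the differences were -1.18, -0.92 and 0.06. With C-30 at 2 µM, TGFB1 was the 1 of 3 genes past the floor that was 2-fold lower, beside 6.15% of all genes. LTBP1, a latency protein gene, passed 2-fold with C-30 at 0.5 µM at -1.12 but was under background on each array. Of 10 measured BMP ligand and antagonist genes, TWSG1, which encodes an extracellular BMP modulator, was the only one past the floor, at 0.40, 0.43 and 0.75 with C-30 at 2 µM, C-30 at 0.5 µM and No.10-3. The genes BMP2, BMP4, BMP6 and BMP7 were under background on all 4 arrays.

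Of 13 receptor genes, 12 were measured, and TGFBR2 was the only one above background that passed 2-fold. With C-30 at 2 µM it was the 1 of 8 receptor genes past the floor that was 2-fold lower, and 0 were higher. Of all genes, 6.15% were lower and 4.67% higher. TGFBR2, the ligand-binding TGF-beta receptor, had signals of 8.56 with C-30 at 2 µM, 9.07 with C-30 at 0.5 µM and 9.47 with No.10-3, against 9.71 with vehicle. Its order followed the C-30 dose, with differences of -1.15, -0.64 and -0.23. TGFBR1, its signalling partner, differed by 0.13, -0.55 and 0.24, and the BMP receptor gene BMPR2 by -0.40, -0.54 and 0.42, in the order C-30 at 2 µM, C-30 at 0.5 µM, No.10-3. ACVR1B, at -1.03 with C-30 at 0.5 µM, was under background on each array. The receptors past the floor had medians of -0.26, -0.29 and -0.15 over 8, 8 and 7 genes, most of them under background. Over TGFBR1, TGFBR2 and BMPR2, which were above it on all arrays, the medians were -0.40, -0.55 and 0.24.

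Of the SMADs that carry the signal, none of SMAD1 to SMAD5 reached 2-fold. SMAD1 differed by -0.18 with C-30 at 2 µM, -0.05 with C-30 at 0.5 µM and -0.52 with No.10-3, SMAD5 by 0.10, 0.16 and 0.61, and SMAD4, the partner of all of them, by 0.29, 0.35 and 0.24. SMAD2 and SMAD3, the TGF-beta SMADs, gave differences with No.10-3 of 0.36 for SMAD2 and -0.37 for SMAD3, and with C-30 of 0.04 and -0.22 at 2 µM and 0.17 and 0.01 at 0.5 µM. SMURF2, an E3 ubiquitin ligase that marks receptors and SMADs for degradation, was the 1 of 10 SMAD and cofactor genes past the floor that passed 2-fold with C-30 at 2 µM. Of all genes past the floor, 4.67% were 2-fold higher and 6.15% lower in that comparison. SMURF2 had signals of 10.65 with C-30 at 2 µM, 10.64 with C-30 at 0.5 µM and 10.30 with No.10-3, against 9.43 with vehicle. All 3 treated arrays were high, with differences of 1.22, 1.21 and 0.87.

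Other targets of the same pathways were set beside these genes. With C-30 at 2 µM, 6.15% of all genes past the floor were 2-fold lower and 4.67% higher. Of 12 other BMP target genes, 3 passed the floor with C-30 at 2 µM, all under background, and 0 passed 2-fold. Of 16 other measured TGF-beta target genes, 9 passed the floor, 0 were 2-fold lower, and TAGLN, under background on each array, was 2-fold higher at 1.02. Their median was 0.26 with C-30 at 2 µM, 0.24 with C-30 at 0.5 µM and -0.05 with No.10-3, but most were under background, and over the 3 genes above it on all arrays the medians were -0.43, -0.50 and -0.48. These 3 were TGFBI at -0.58, -0.55 and -0.87, TGM2 at -0.43, -0.50 and 0.45, and CDKN1A at 0.62, 0.21 and -0.48, in the order C-30 at 2 µM, C-30 at 0.5 µM, No.10-3.

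Of 16 other measured YAP target genes, 12 passed the floor with C-30 at 2 µM, with a median of -0.34 and 9 below 0. In that comparison 1 was 2-fold lower, ARHGEF17 at a measured -1.37, which was under background on each array, and 1, GADD45A, was 2-fold higher by measured signal. Of all genes past the floor, 6.15% were 2-fold lower and 4.67% higher there. GADD45A, which is also a stress-response gene, was under background with vehicle, so it was at least 1.72-fold higher and 2-fold is not established. With C-30 at 0.5 µM the median was -0.10, and with No.10-3 it was -0.08. Of the bright members, MYOF differed by -0.89, -0.33 and -0.03 with C-30 at 2 µM, C-30 at 0.5 µM and No.10-3. In the same order AXL differed by -0.33, -0.38 and 0.29, CRIM1 by -0.29, -0.11 and 0.69, and DOCK5 by -0.31, 0.32 and 0.20. IGFBP3, an insulin-like growth factor binding protein gene, had signals of 9.33 with C-30 at 2 µM, 9.97 with C-30 at 0.5 µM and 8.42 with No.10-3, against 10.16 with vehicle, and was lowest with No.10-3 at -1.74. NT5E, which encodes the ectonucleotidase CD73, was higher on each treated array, at 0.86, 0.31 and 1.20. The other CCN and thrombospondin genes, CCN3 to CCN6, THBS2 to THBS4 and COMP, were under background on all arrays.

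Of 20 measured genes of the Hippo pathway, YAP, TAZ and the TEADs, all passed the floor. With C-30 at 2 µM 3 were 2-fold lower and 0 higher, beside 6.15% and 4.67% of all genes past the floor. With C-30 at 0.5 µM 1 was lower and 2 were higher, beside 2.77% and 3.4%. With No.10-3 0 were lower and 2 higher, beside 1.32% and 4.36%. With signals under background set to the background level, the lower counts were 2 and 0 for C-30 at 2 and 0.5 µM and the others stood as given, since TAOK2, lower at both doses, was under background on both C-30 arrays. This recount covers the 15, 15 and 16 genes with a value or bound for C-30 at 2 µM, C-30 at 0.5 µM and No.10-3. YAP1 itself had signals of 9.03 with C-30 at 2 µM, 9.30 with C-30 at 0.5 µM and 9.90 with No.10-3, against 9.20 with vehicle, differences of -0.17, 0.10 and 0.70. WWTR1, the gene of TAZ, was under background with vehicle and at least 1.26-fold higher than that background level on each treated array. Its measured differences, 0.52, 0.69 and 0.47, are smaller than the robust SDs of the negative control probe sets, 0.91, 0.83 and 0.83. An increase of WWTR1 is therefore not established. The 3 lower genes with C-30 at 2 µM were NF2, TEAD2 and, by measured signal, TAOK2. NF2, an upstream activator of the Hippo kinases, had signals of 9.63 with C-30 at 2 µM, 10.40 with C-30 at 0.5 µM and 10.61 with No.10-3, against 11.11 with vehicle, and differed by -1.48, -0.71 and -0.50. TAOK2, a kinase gene upstream of the Hippo kinases, was at least 1.59-fold lower at 2 µM and at least 1.63-fold lower at 0.5 µM. TEAD2 differed by -1.05, -0.75 and -0.51, and TEAD1 in the opposite direction, by 0.48, 1.05 and 1.35. STK3, one of the Hippo kinase genes, was likewise higher on each treated array, at 0.79, 1.10 and 1.18.

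**Figure D4:**
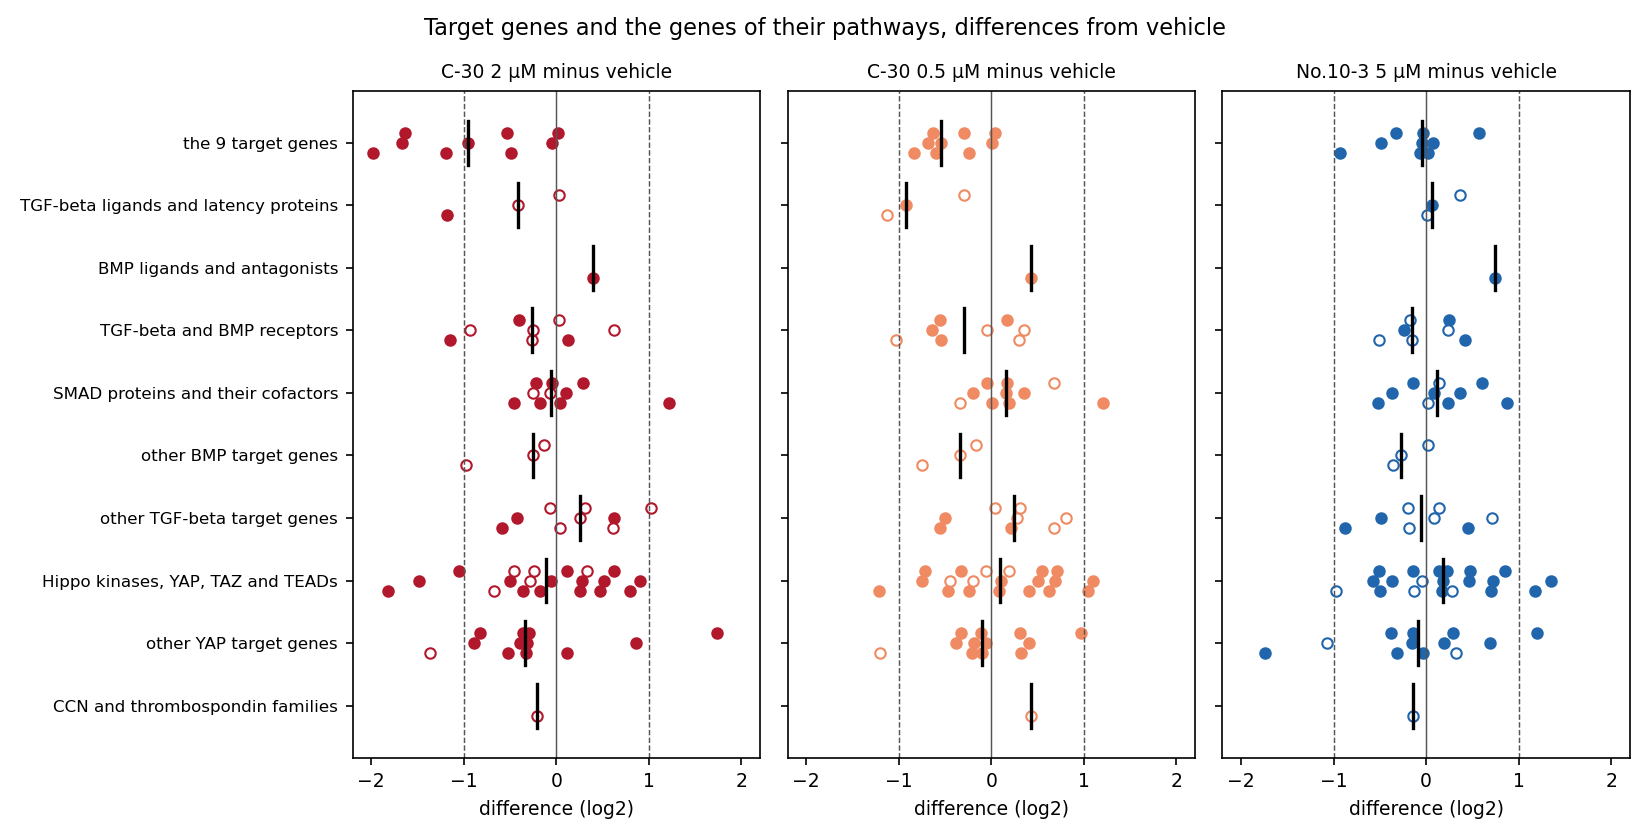
Log2 difference from vehicle (horizontal axis) of the 9 target genes and of the members of 9 pathway lists past the signal floor, for C-30 at 2 µM, C-30 at 0.5 µM and No.10-3 at 5 µM; open circles are genes under background on both arrays, black bars are medians and dashed lines mark 2-fold. The 9 target genes have their median at -0.96 with C-30 at 2 µM, against 0.26 for the other TGF-beta targets and -0.34 for the other YAP targets, and many genes of the lists are near or under background; over genes above background on all 4 arrays these medians are -1.63 (5 genes), -0.43 (3 genes) and -0.34 (10 genes).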

How the data were processed

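Total RNA of DU145 cells was labelled with biotin and hybridised to 1 array per condition, per the labels. The authors deposited log2 signals, and the submitters' processing notes name RMA and version 1.3.0 of Affymetrix Expression Console; the log base is inferred from the range of the values. RMA commonly includes quantile normalization between arrays, so a shift of all genes on an array would not be seen. The highest deposited value was 19.93, above the range of scanner readings on a log2 scale, so folds hold only on the scale of these values. The build used in that processing is not given in the sources used here.

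The platform annotation paired 17709 of the 24351 probe sets with 1 gene symbol each, and all were updated by Entrez identifier through a RefSeq table of GRCh38.p14. The remaining 6642 had none. Probe sets were averaged in the 20 genes that had more than 1. Where a gene was not above background on 1 of 2 arrays, that array's background level replaced its signal and the fold is given as at least that large. The background levels differ between arrays and are no bound on error, so these folds are not tested minimum changes.

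Genes outside the 9 are those of fixed pathway lists, some of which overlap. Named were those past 2-fold against vehicle, with the receptors, SMADs, YAP1, WWTR1 and others needed to describe the pathway, and the 3 genes nearest to ID1 and to CCN1. Some bright or measured list members were added after their values were seen. The 9 genes, the lists and the motifs were chosen with earlier results of these data known, and no test is given. The calculation of differences was tested on simulated data with large changes and noise below the spread of all genes here. It checks the arithmetic and not the precision of these differences. Python 3.11.15, numpy 2.4.6, pandas 2.3.3, statsmodels 0.14.6 and matplotlib 3.10.9 were used.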

Additional observations from a re-analysis of the deposited data

How the results depend on the processing

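The 9 genes were recomputed without a floor, with a floor at the 75th percentile of named probe sets (7.90), at 1.5-fold, after quantile normalization, after a lowess correction (fraction 0.3), after centring, from the second deposited table, with the brightest probe set, and, added after seeing the data, with a floor at the highest background level of the arrays; list medians over genes above background were added likewise. Of 274 differences of single genes obtained, 0 moved by as much as the robust SD of the ERCC probe sets, and the largest shift was 0.14. Many of these could not move. The floors only keep or drop genes, each of the 9 genes has 1 probe set, and the 2 deposited tables differ by at most 5e-05. Only quantile normalization, lowess correction and centring, with 36 differences each, could shift a value further. The 4 genes lower with C-30 at 2 µM, against vehicle and against 0.5 µM, were 2-fold lower under each setting in which they were measured. With No.10-3, 1 gene, ANKRD1, was past 2-fold downwards after quantile normalization, lowess correction and centring, beside 1.58%, 1.53% and 1.97% of all genes, and 1 at the 1.5-fold threshold, beside 8.34%. At 1.5-fold, 4 of the 9 stood lower at 0.5 µM of C-30 against vehicle, beside 13.4% of all genes. SMAD6, 1 of them, was under background, 1.41-fold lower with the background level in place of its signal, and its decrease there is not established. At 1.5-fold 1 was higher with C-30 at 2 µM against 0.5 µM, beside 7.89%. With the floor at the 75th percentile the median with C-30 at 2 µM was -1.41 against vehicle and -1.11 against 0.5 µM, and with the floor at background the second was -1.07; these floors leave out dim genes by construction. No paired analysis was possible because each condition has 1 array. Genes near background, above all SMAD6, SMAD7 and CCN2, are limited by signal.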
